A study of Mus musculus with 4 samples.

Results

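The 9 genes described here are Pax2, Pax8, Eya1, Gata3, Dlx5, Tbx1, Tbx2, Hmx2 and Hmx3, transcription regulators that give the otic placode and otocyst their identity. They were chosen by symbol, and all 9 were found among the 49997 genes listed in each of 4 mouse RNA-seq libraries. The libraries come from iMOP cells, an immortalized otic progenitor line with multipotent capacity and a wild-type genotype, in 2 states with 2 libraries each. Proliferating cells grew in DMEM/F12 with B27, carbenicillin and basic FGF at 20 ng/ml. The iMOP-derived neurons grew in Neurobasal medium with N21, L-glutamine and 1 µM of K03861, which inhibits CDK2, a kinase of the cell cycle. The titles call the libraries of a state biological replicates, but how the cultures were separated is not given, so every spread below is that between these libraries. Both states are of a single line, and the time that neurons spent in their medium is not given in the sources used here.

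The inner ear begins as a thickening of the head ectoderm, the otic placode, which folds into a vesicle, the otocyst. Pax8 and Pax2, paired-box factors, mark the placode from its beginning, and Eya1, a phosphatase and transcriptional coactivator, drives its growth and neurogenesis. In the otocyst, Gata3, Dlx5, Tbx1, Tbx2, Hmx2 and Hmx3 divide the epithelium into regions that later give vestibular, cochlear and neuronal cells. The question addressed is which of these factors the line still expressed in each state, and which were not detected.

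Eya1 was the only factor that reached 1 CPM (the counts-per-million scale, defined below) in both libraries of either state, and it did so in both states. Pax2 and Pax8 were listed at 0 counts in all 4 libraries. Gata3, Hmx2 and Hmx3 had 4, 2 and 5 counts over the 4 libraries together, and Dlx5, Tbx1 and Tbx2 had between 1 and 23 counts per library. Eya1, the single factor with enough counts for the test, was not called different between neurons and proliferating cells.

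The promoter sequence of the undetected PAX genes is shown because these genes had no count at all. The windows are the 250 bases before a RefSeq transcription start (table of build GRCm38.p6, the assembly also called mm10, which the submitters' processing notes name), 5′ to 3′ on the gene's strand. For Pax2, which has 3 starts in the table, the start whose following bases were found in a GENCODE transcript was taken. Capitals mark the dinucleotide CG, which reads the same on both strands.
Pax2, chr19:44756656-44756905, plus strand: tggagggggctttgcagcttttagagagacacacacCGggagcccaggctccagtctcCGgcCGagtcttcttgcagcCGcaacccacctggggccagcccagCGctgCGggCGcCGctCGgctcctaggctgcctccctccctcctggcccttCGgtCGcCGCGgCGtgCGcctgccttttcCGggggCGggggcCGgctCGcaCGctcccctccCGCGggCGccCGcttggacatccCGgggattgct
Pax8, chr2:24475600-24475849, minus strand: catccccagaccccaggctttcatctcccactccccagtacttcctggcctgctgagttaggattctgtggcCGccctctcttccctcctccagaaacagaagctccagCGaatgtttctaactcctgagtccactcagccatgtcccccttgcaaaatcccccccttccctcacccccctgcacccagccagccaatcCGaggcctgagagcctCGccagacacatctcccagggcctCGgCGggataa
The Pax2 window holds 25 CG dinucleotides, a number that 10.7% of the 32851 promoter windows of the table reach. The Pax8 window holds 6, the median of all windows, and 50.4% of windows reach it. Both genes were at 0 counts, and the windows shown differ in CG content. The windows before the other Pax2 starts hold 5 and 20 CG, so this difference depends on the start taken. The table had windows for 6 of the 9 factors.

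Most counts were of ribosomal RNA. The 18S row Rn18s-rs5 took between 53.3% and 76.1% of the counts of a library and left 2595578 to 3850766 counts for all other genes. CPM is given on library sizes adjusted with TMM factors, the 18S row included, so 1 CPM stands for 7.39 to 12.2 counts. A count of 0 allows up to 3 counts, which over both libraries of a state is 0.153 CPM for proliferating cells and 0.138 CPM for neurons. These limits and the intervals below cover counting error only. The proliferating libraries resembled each other less (r = 0.825 across 12783 tested genes) than either resembled the neuron library of the same number (0.918 and 0.852). Genes are not independent replicates, and these correlations only describe the libraries.

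Pax2 is on chromosome 19 (44746601 to 44838269, GRCm38.p6) and Pax8 on chromosome 2 (24420551 to 24475599). None of the 4 libraries had a count for either gene. Of the protein-coding genes in RefSeq, 30.6% were likewise at 0 in all 4 libraries, and of all listed genes 48.3% were. Per kilobase of merged exons, the limit for Pax2 was 0.0284 CPM for proliferating cells and 0.0256 CPM for neurons, and that for Pax8 was 0.0253 and 0.0228. On the same scale the pooled level of Eya1 was 0.583 in proliferating cells and 0.944 in neurons. Each library's own value for Eya1, from 0.468 to 1.11, also lay above these limits.

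A 0 can also arise in counting. All 37 genes of the mitochondrial genome were at 0 in every library, so some genes went uncounted. None of the exonic bases of Pax2 overlapped an exon of another gene in GENCODE M21. Of those of Pax8, 6.06% overlapped Gm13415, a noncoding gene on the other strand that was also at 0 in all 4 libraries. The part of counting in the Pax2 and Pax8 values was not tested beyond these measurements.

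**Figure D1:**
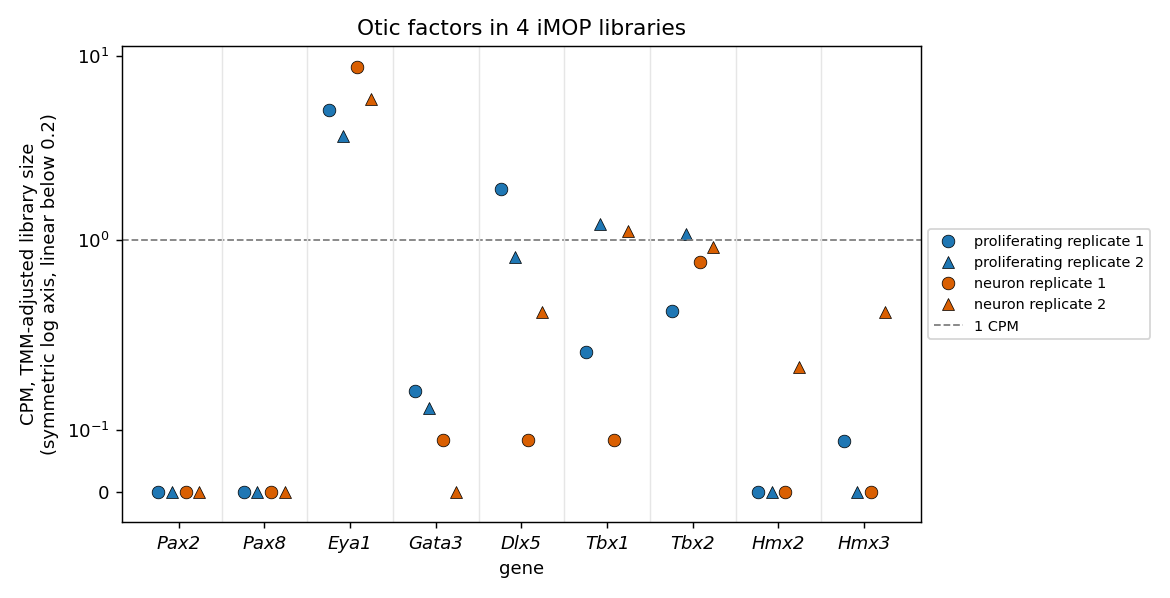
CPM of the 9 factors (symmetric log axis, linear below 0.2) in each library, blue for proliferating cells and orange for neurons, circles for replicate 1 and triangles for replicate 2, with a dashed line at 1 CPM. Eya1 lies between 3.65 and 8.66 CPM in all 4 libraries, Pax2 and Pax8 lie at 0, and the other factors lie below 2 CPM.

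Eya1 is on chromosome 1 (14168953 to 14311035) and had 62 and 27 counts in replicates 1 and 2 of the proliferating cells and 103 and 57 in those of the neurons. In CPM these were 5.09 and 3.65 in the proliferating libraries and 8.66 and 5.81 in the neuron libraries. The neuron libraries were the higher ones in both replicate pairs. The state means were 4.37 ± 1.02 CPM and 7.24 ± 2.02 CPM (SD, n = 2 each). The log2 fold change of neurons against proliferating cells was 0.72 with SE 0.51, which did not pass the test (edgeR quasi-likelihood test, Benjamini-Hochberg adjusted p = 0.9998). Within the pair of replicate 1 it was 0.74, and within that of replicate 2 it was 0.64.

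On TMM-scaled CPM the Eya1 levels of the states did not overlap. Among tested genes, 12.9% had both neuron libraries above both proliferating ones and 14.5% had both below. When only the total count was used for scaling, Eya1 was 8.33 and 2.60 in the proliferating libraries and 10.9 and 3.94 CPM in the neuron libraries, so the states overlapped on that scale. They also overlapped when the total without the 18S row was used, where the CPM values were 17.8 and 10.4 in the proliferating libraries and 26.7 and 16.5 in the neuron libraries.

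The edgeR test called 0 of 12783 genes higher (0%) and 0 lower (0%) in neurons at an adjusted p under 0.05. The other 8 factors did not pass the filter on low counts and were not tested, so Eya1 is the single factor behind that comparison. At an unadjusted p under 0.05 there were 438 genes, and Eya1 was not among them. DESeq2 called 60 genes, 12 of them higher and 48 lower in neurons, and Eya1 was not among them either.

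At least 1 CPM in both proliferating libraries was reached by 21.4% of all listed genes and by 43.4% of protein-coding genes. For neurons the shares were 22.3% and 44.1%. Of the otic factors 1 of 9 did so in each state, and no test of the difference from those shares was made. Bulk RNA cannot tell fewer cells that express a gene from less RNA per cell.

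Dlx5, a homeodomain factor needed for the vestibular parts of the ear, had the most counts over the 4 libraries after Eya1. It had 23 and 6 counts in replicates 1 and 2 of the proliferating cells and 1 and 4 in those of the neurons. Both proliferating libraries were above both neuron libraries. Over the libraries of a state the level was 1.48 CPM (95% Poisson interval 0.993 to 2.13) in proliferating cells and 0.230 CPM (0.0748 to 0.538) in neurons. The proliferating level was 6.43-fold higher (counting interval 2.46 to 21.3), and 3.52-fold (0.896 to 14.6) without proliferating replicate 1. When genes with low counts were kept in the edgeR fit, the log2 fold change of Dlx5 was -2.44 with SE 1.10 and an adjusted p of 0.991.

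The neighbouring genes set proliferating replicate 1 apart. Dlx6os1, a long noncoding RNA gene 6174 bases from Dlx5 on chromosome 6, had 176 counts in that library and 3, 9 and 8 in proliferating replicate 2 and the neuron replicates 1 and 2. The edgeR fit that kept low counts called Dlx6os1 lower in neurons (log2 fold change -3.23, SE 0.74, adjusted p = 0.00425). Proliferating replicate 2, however, was below both neuron libraries, so that call rests on 1 library. Dlx6os2, named after its values were seen, had 10 counts there and 0 in the others. Dlx6, the homeodomain gene paired with Dlx5, had 3 counts there and 0, 2 and 5 in the other libraries. Of the 250 counts of these 4 genes, 212 (84.8%) came from proliferating replicate 1.

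**Figure D2:**
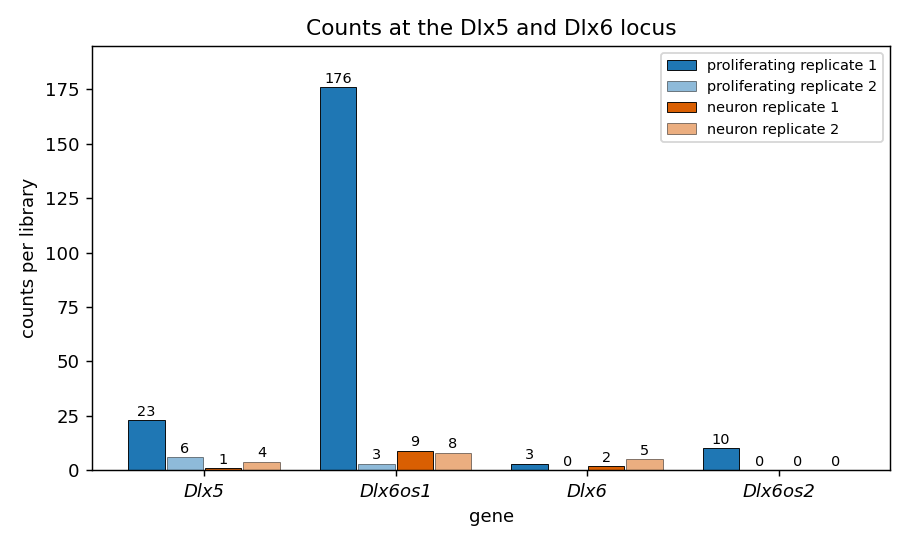
Counts of Dlx5, Dlx6os1, Dlx6 and Dlx6os2 in each library (bars, blue for proliferating and orange for neuron libraries, pale for replicate 2). Proliferating replicate 1 holds 23 of the Dlx5 counts and 176 of the Dlx6os1 counts, while no other library exceeds 9 counts for any of the genes.

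The T-box factors Tbx1 and Tbx2 act in the otocyst epithelium, where Tbx1 restrains neurogenesis. Tbx1, on chromosome 16, had 3 and 9 counts in replicates 1 and 2 of the proliferating cells and 1 and 11 in those of the neurons. Both replicate 2 libraries were high and both replicate 1 libraries low, so Tbx1 went with the replicate number and not with the state. In CPM it was 1.22 and 1.12 in the replicate 2 libraries and 0.246 and 0.0841 in the replicate 1 libraries. The ratio of neurons to proliferating cells was 0.901 (95% counting interval 0.370 to 2.19). The titles of the replicate 2 libraries carry the words set 2, whose meaning is not given, and the part of the set in this value was not tested.

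Tbx2, on chromosome 11, was the steadiest of the low factors. It had 5 and 8 counts in the proliferating libraries and 9 in each neuron library, or 0.411 and 1.08 CPM against 0.757 and 0.917 CPM. The states overlapped, and the ratio of neurons to proliferating cells was 1.25 (0.578 to 2.77). Its near neighbour Tbx4 had 1 count in all.

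Gata3, a zinc-finger factor of the otic epithelium and of auditory neurons, had 2 and 1 counts in replicates 1 and 2 of the proliferating cells and 1 and 0 in those of the neurons. Its pooled level was 0.153 CPM in proliferating cells (0.0316 to 0.448) and 0.0461 CPM in neurons (0.00117 to 0.257). A ratio of neurons to proliferating cells of 0.300 came with a counting interval of 0.00572 to 3.74, so no difference between the states was detectable at this depth. Of the exonic bases of Gata3, 5.83% overlapped exons of other genes. Its overlapping noncoding genes 4930412O13Rik and 9230102O04Rik were at 0 in all 4 libraries.

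Hmx2 and Hmx3 are homeodomain factors of the dorsolateral otocyst and lie 2730 bases apart on chromosome 7. Hmx2 had counts only in neuron replicate 2, where there were 2. Hmx3 had 4 counts in that library, 1 in proliferating replicate 1 and 0 in the others. Thus 6 of the 7 counts of this gene pair were from neuron replicate 2. Bub3, the mitotic checkpoint gene 2353 bases beyond Hmx2, had 76 and 97 counts in the proliferating libraries and 113 and 105 in the neuron libraries. The third member of the family, Hmx1, was at 0 throughout.

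The order of levels between factors depended on the gene length used. In the authors' RPKM, Tbx2 had the highest median over the 4 libraries, with 0.189, 0.216, 0.267 and 0.174 in the proliferating replicates 1 and 2 and the neuron replicates 1 and 2. Eya1 had 0.119, 0.0371, 0.155 and 0.0562 in the same order, all below Tbx2. Dlx5 had 0.561, 0.105, 0.0192 and 0.0502, above Tbx2 in proliferating replicate 1 and below it in the other libraries. The length behind the deposited RPKM of Eya1 was 70065 bases, which is 8.97 times its merged exons of 7808 bases in GENCODE M21. For Tbx2 the 2 lengths nearly agreed (3562 and 3626 bases). Per kilobase of merged exons, Eya1 had the highest median, with 0.468 to 1.11 CPM, and all 4 of its values were above all of those of Tbx2 (0.113 to 0.299) and of Tbx1 (0.0239 to 0.346). Dlx5 had the next median but ranged from 0.0372 to 0.835, overlapping Eya1 as well as Tbx2 and Tbx1, and was above Eya1 in proliferating replicate 1. The last 3 did not differ beyond their spread. Hmx3 ranged from 0 to 0.280 and Gata3 from 0 to 0.0413.

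For comparison, 35 relatives of the factors from the same gene families were read out, of which 8 were expressed by the 1 CPM rule in proliferating cells and 9 in neurons. In the PAX family, Pax3, Pax6 and Pax9 were expressed in both states, and Pax1, Pax4, Pax5 and Pax7 were at 0 in all 4 libraries, as Pax2 and Pax8 were. Pax5 is the third member of the Pax2 and Pax8 subfamily, so that whole subfamily was without a count. Pax3, a factor of the neural crest and of the trigeminal placode, had 147 and 108 counts in the proliferating libraries and 473 and 277 in the neuron libraries. Both neuron libraries were higher in CPM, at 39.8 and 28.2 against 12.1 and 14.6. Its log2 fold change of 1.35 (SE 0.47) did not pass the test (edgeR adjusted p = 0.9998). On the total count the levels of the states overlapped, but on the total without the 18S row they did not.

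Each of the EYA genes was detected in every library. Eya3 was the steadiest, with 10.96 to 13.6 CPM. Eya2 had 5 counts in proliferating replicate 1 but 37 in proliferating replicate 2 and 69 and 68 in the neuron replicates 1 and 2. Eya4 had 57 and 9 counts in replicates 1 and 2 of the proliferating cells and 55 and 57 in those of the neurons. Eya2 and Eya4 were thus each low in a different proliferating library. Per kilobase of merged exons, Eya3 (1.94 to 2.42 CPM) was above Eya1 in all 4 libraries and Eya4 (0.129 to 0.617) overlapped Eya1. On that scale Eya2 was below Eya1 in proliferating replicate 1 (0.139 CPM) and above it in the other libraries (1.69 to 2.34 CPM).

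In the other families few relatives were present. Of the GATA genes none was expressed by the rule, and Gata2 had the most counts over the 4 libraries, with 1 count in each proliferating library and 3 and 13 in replicates 1 and 2 of the neurons. Of the DLX genes only Dlx1 was expressed, with 2.36 to 6.16 CPM. Among T-box genes only Tbx18 and Mga, which encodes a MAX partner with a T-box, passed the rule. Tbx18, a gene of the mesenchyme around the otocyst, had 48 and 17 counts in the proliferating libraries and 126 and 68 in the neuron libraries. Its log2 fold change was 1.47 with SE 0.54 (edgeR adjusted p = 0.9998). Its states did not overlap on TMM-scaled CPM or on the total without the 18S row, but did on the total count.

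Over the 9 tested relatives, edgeR called 0 after adjustment and 2, Pax3 and Tbx18, at an unadjusted p under 0.05. Both were higher in neurons. Of all 12783 tested genes, 438 had an unadjusted edgeR p under 0.05, 117 of them higher in neurons. No test against that share was made. DESeq2 called 0. The median log2 fold change was 0.43 beside 0.02 over all tested genes, with 6 positive and 3 negative.

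**Figure D3:**
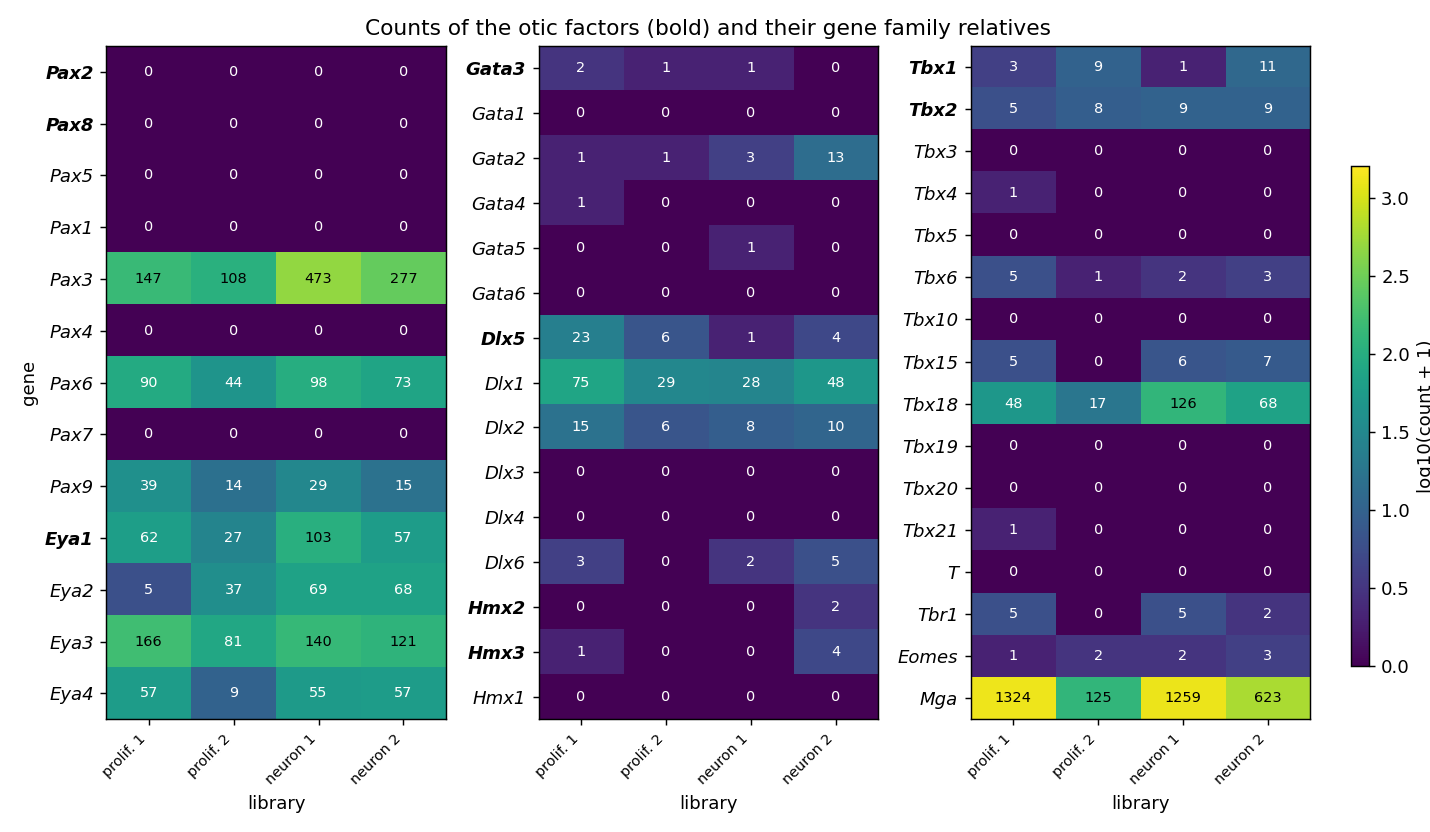
Counts of the 9 factors (bold) and their gene family relatives in each library, printed in the cells and shaded by log10(count + 1). Rows at 0 in all libraries include Pax2, Pax8 and Pax5, while Pax3, Eya3, Tbx18 and Mga have counts in every library.

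The wider otic list held 30 further placode and otocyst genes, 7 of which are also relatives of the factors. In proliferating cells 10 were expressed by the 1 CPM rule, 8 had traces and 12 had no count. In neurons the numbers were again 10, 8 and 12, and 9 genes were expressed in both states. These were the progenitor factors Sox2 and Sox9, the Notch pathway genes Jag1 and Lfng, the ectodermal factor Tfap2a, Sall1, Dach1, Six4 and Eya4. Per kilobase of merged exons, Sox2 had 10.7 to 23.4 CPM, far above the 0.468 to 1.11 CPM of Eya1. Genes at 0 in all 4 libraries numbered 11, among them the placode genes Foxi2, Foxi3 and Dlx3, the neuroblast factor Isl1, and Fgf3, Bmp4, Tbx3 and the otolith protein gene Oc90.

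Six4 and Dach1, genes of the network around Eya1, were expressed in both states. Six4, a homeodomain factor, was detected in all 4 libraries, with 2.75 to 6.06 CPM, and the states overlapped. Dach1, a cofactor in the same network, had 5.998 and 9.20 CPM in the proliferating libraries and 16.3 and 14.1 CPM in the neuron libraries. Both neuron libraries were higher, but the log2 fold change of 1.00 (SE 0.49) did not pass the edgeR test (adjusted p = 0.9998). The states of Dach1 overlapped on the total count but not on the total without the 18S row.

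Among regional genes of the otocyst, Lmx1a had counts in proliferating cells only, as traces by the 1 CPM rule. Gbx2 was expressed by that rule in proliferating cells only. Lmx1a, a gene of the dorsal otocyst, had 15 and 3 counts in the proliferating libraries and 0 in each neuron library. Its pooled level in proliferating cells was 0.920 CPM (0.545 to 1.45), and the 0 in neurons allows up to 0.138 CPM. Gbx2, another dorsal gene, had 15 and 30 counts in the proliferating libraries and 10 and 3 in the neuron libraries. Its log2 fold change was -2.14 with SE 0.92 (edgeR adjusted p = 0.9998), and -1.05 without proliferating replicate 2. Sox9 ranged from 40.8 to 58.1 CPM in proliferating cells and from 4.18 to 26.9 CPM in neurons. Its log2 fold change of -1.66 (SE 0.81, edgeR adjusted p = 0.9998) was -0.88 when neuron replicate 2 was left out and -3.60 when neuron replicate 1 was.

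Of the 11 tested genes of this list, edgeR called 0, with 0 at an unadjusted p under 0.05, and DESeq2 called 0. Log2 fold changes were positive for 5 genes and negative for 6, with a median of -0.12. Levels of the states did not overlap for 2 genes higher in neurons (Eya2 and Dach1) and 4 lower (Sox9, Gbx2, Jag1 and Lfng). Over all tested genes 12.9% were higher in this way and 14.5% lower, and no test against those shares was made. On the total count Eya2, Sox9 and Gbx2 still did not overlap, and Dach1, Jag1 and Lfng did. On the total without the 18S row none of these genes overlapped.

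**Figure D4:**
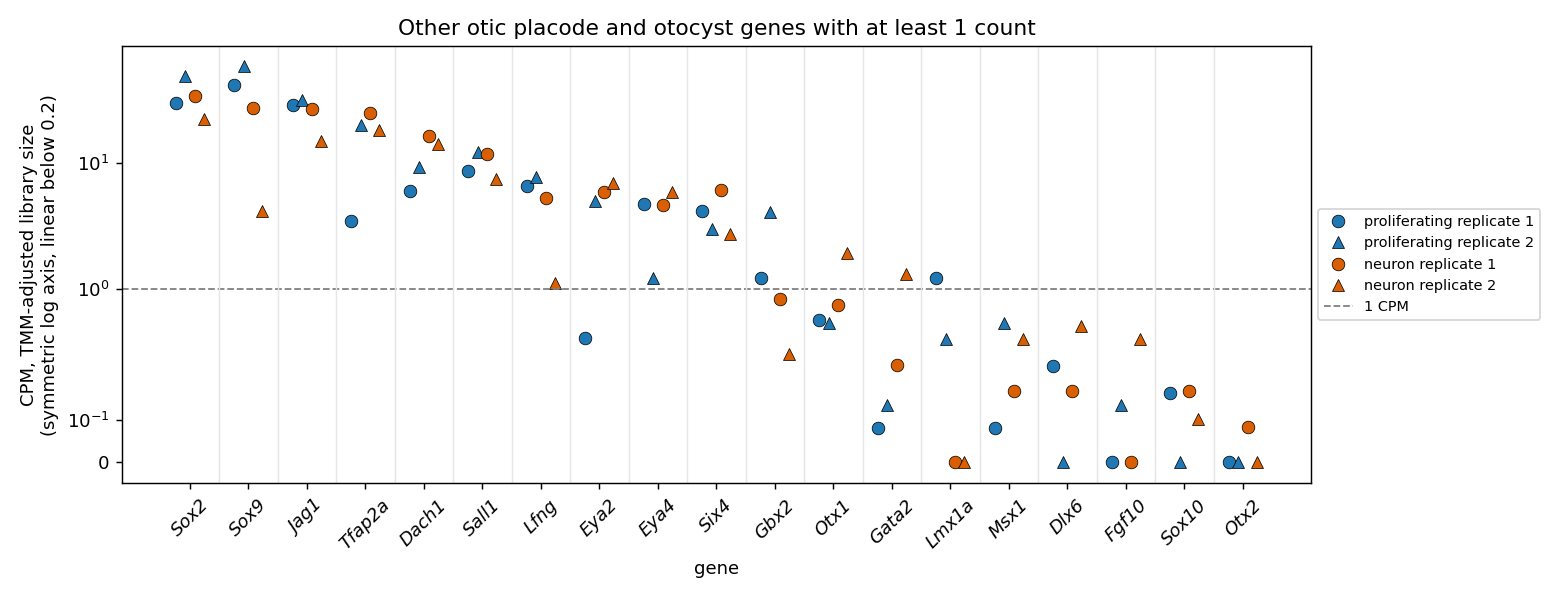
CPM (symmetric log axis, linear below 0.2) of the other otic genes with at least 1 count, ordered by mean level, with colours and symbols as in the plot of the 9 factors. Sox2, Sox9 and Jag1 lead, and the genes from Otx1 to Otx2 on the right fall below 1 CPM in most libraries.

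Of 7 otic progenitor markers, Sox2, Jag1 and Eya1 were expressed in both states, Gata3 and Dlx5 had traces, and Pax2 and Pax8 had no count. Markers of neurons were present in both states, 5 of 10 expressed in proliferating cells and 6 of 10 in neurons. Their summed level was 151.5 and 319.2 CPM in the proliferating libraries and 196.6 and 341.4 CPM in the neuron libraries, higher in replicate 2 of each state. In proliferating cells this followed Tubb3, with 19.1 CPM in replicate 1 and 193.6 in replicate 2. Map2 (93.9 and 92.3 CPM) and Dcx (22.9 and 15.4 CPM) were not higher in proliferating replicate 2. Of the 7 mesenchyme markers Pou3f4 and Tbx18 were expressed, while the collagen gene Col1a2 was at 0 in all 4 libraries and Col1a1 and Col3a1 had at most 8 counts. Their summed level was 17.9 and 49.5 CPM in the proliferating libraries and 25.8 and 29.7 CPM in the neuron libraries. Neural crest and Schwann markers summed to at most 1.08 CPM in a library, with Foxd3 at 0. The 4 glial markers summed to 38.2 and 62.8 CPM in the proliferating libraries and 18.3 and 1.12 CPM in the neuron libraries. The part of other cell types in the values of the otic factors was not tested.

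Among the 18 other tested genes of the otic and relatives' lists, the gene most like Eya1 across the 4 libraries was Pax6, a factor of the lens and nasal placodes. The Euclidean distance between their centred log2 CPM values was 0.558. Of all 12782 other tested genes, 916 (7.17%) lay closer to Eya1 than Pax6 did, so 4 libraries do not single Pax6 out.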

How the data were processed

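The authors deposited a table of raw counts per gene and a table of RPKM values for each of the 4 libraries. Per the submitters' processing notes, HISAT2, SAMtools, featureCounts, DESeq2 and deepTools 3.4.3 were used with the mouse build mm10. Their settings, the use of strand and the annotation are not given in the sources used here. Per the labels' protocols, stranded libraries were made after rRNA depletion of a 500 ng input. The deposited RPKM divides each count by the total count, 18S row included, and by a fixed gene length, recovered here from the ratio of the values.

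The 9 factors and all gene lists were chosen with earlier results of these data known. Some genes of the lists are not reported here and enter no count over a list. Any gene of the lists or next to a factor could be named. The test was edgeR 4.0.16 in R 4.3.3 (TMM, filterByExpr with minimum count 10 and minimum total 15, glmQLFit, glmQLFTest, state as the single term, two-sided), fitted on all 4 libraries and adjusted over 12783 genes. Differences within a replicate pair were taken on log2 CPM (prior count 2), untested. With 2 libraries against 2, the smallest p that a two-sided exact permutation of a single value can give is 0.333, so none was run. Intervals of counts are exact Poisson and those of ratios exact binomial, at 95%. Lengths came from GENCODE M21. The fit was run on simulated counts with known changes. Those counts were set to vary less between libraries than the data do. That run therefore does not show which changes the fit can detect in these data.

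The replicate numbers were taken to mark a shared set, since both replicate 2 titles carry the words set 2. Deviations from the state means of same-numbered libraries correlated with r = 0.33 across genes. Alternatives were other scalings, filters and tools (DESeq2 1.42.0, limma 3.58.1 on log2 RPKM), a fit with the replicate block, and fits that left out 1 library at a time.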

Additional observations from a re-analysis of the deposited data

How the results depend on the processing

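The log2 fold change of Eya1 stayed positive and uncalled under all 13 alternatives. It ranged from 0.04 on log2(RPKM + 1), which understates changes of low values, to 0.98 without neuron replicate 2, with adjusted p-values from 0.41 to 1.0. With the replicate block it was 0.72 (SE 0.49, adjusted p 0.91), and the block changed no call of a named gene. Library size alone gave 0.44 and shifted the median of all genes from 0.02 to -0.27, log2(RPKM + 0.1) shifted it to -0.15, and leaving out neuron replicate 1 to -0.08. No gene of the otic list or of the relatives was called under any alternative, and Pax3, Tbx18, Dach1, Sox9 and Gbx2 kept their direction.

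How many factors count as expressed depended on the threshold, since several lie near it. In proliferating cells there was 1 factor at 1 CPM, but 2 at 0.5 CPM (Eya1 and Dlx5), 0 at 5 CPM, 2 at an RPKM of 0.1 (Dlx5 and Tbx2) and 3 when CPM left out the 18S row (Eya1, Dlx5 and Tbx2). In neurons there was 1 at 1 CPM and 2 at 0.5 CPM and without the 18S row (Eya1 and Tbx2 in both). At an RPKM of 0.1 the 1 factor in neurons was Tbx2, not Eya1. Leaving out a library gave 2 to 3 factors in proliferating cells and 1 to 2 in neurons, as a single library then sets the count. The scale without the 18S row and the lengths of merged exons were chosen after seeing the data.

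Depth limits every factor: 1 CPM stands for 7.39 to 12.2 counts, and a 0 allows up to 3 counts. Eya1, the single factor with enough counts for the test, had 27 to 103 counts per library.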

Other observations

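Neuron replicate 2 held most counts of several sparse ear genes besides Hmx2 and Hmx3. Atoh1, which starts hair cell formation, had 91 counts there, 17 and 18 in the proliferating replicates and 1 in neuron replicate 1. Gata2 had 13 of its 18 counts there. Fgf10, an otic growth factor, had 4 of its 5 counts there. Pou4f3 and Otof, later hair cell genes, were at 0 in all 4 libraries. Of the other hair cell markers, Gfi1 had 3 counts in neuron replicate 2 and none elsewhere. Myo7a and Myo6 had the most counts in proliferating replicate 1. Myo7a had 18 and 1 counts in replicates 1 and 2 of the proliferating cells and 0 and 1 in those of the neurons. Myo6 had 256 and 121 against 54 and 122 in the same order. Lhx3 had 6 and 3 against 0 and 5, with similar CPM in proliferating replicate 1 (0.493) and neuron replicate 2 (0.510). Barhl1 had 11 and 3 counts in each state, and so went with the replicate number. These genes were picked after their values were seen, and the values are given without a test.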
